A study of Mus musculus with 12 samples.

Results

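Immediate early genes are genes whose transcription can be switched on within minutes of a stimulus, without new protein synthesis. The 10 described here were Fos, Fosb, Jun, Junb, Egr1, Atf3, Ier2, Dusp1, Klf2 and Klf4, and each was identified by the transcript accession that the array design pairs with its probe. All 10 had 1 probe on the array and all 10 were among the 15243 mouse genes tested. The series is titled for the need of the forkhead factors Foxc1 and Foxc2 in keeping up glomerular podocytes, the filtration cells of the kidney. It comprised 12 one-colour Agilent arrays in 6 groups of 2. Every group carried an inducible Cre, which the design text calls CreERT2, with floxed alleles of Foxc1 and of a second gene that the genotype labels number differently from sample to sample (Foxc2 in the first, up to Foxc13). The series title was followed here in reading that gene as Foxc2. Glomeruli came from 2 control mice, whose agent is given as none, and from 2 mice aged 8 weeks that had tamoxifen injected intraperitoneally on 3 days in a row and gave their glomeruli on day 7. Podocytes expanded in primary culture from glomeruli of adult mice received mock treatment or tamoxifen in its active form, and RNA was taken after 4 or 7 days, with 2 samples in each of these 4 groups. Neither the promoter driving the Cre nor a Cre-negative control given tamoxifen appears in the labels, so the drug and the recombination cannot be told apart. The glomerular labels name separate mice. Nothing says whether the numbered cultures were separate. The p-values use a spread shared by all 12 arrays, so those for cultures also carry the spread between the glomerular mice. The culture part of that spread may be technical.

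Immediate early genes link receptors, stretch and stress to later gene programmes. Growth factor and stress signals pass through MAP kinases to factors already present in the cell, such as the serum response factor with its partners and the CREB and ATF proteins. The first genes these switch on include Fos, Fosb, Jun and Junb, whose products pair as the AP-1 transcription factor. Egr1 encodes a zinc finger transcription factor, Atf3 a stress-induced member of the ATF family, and Ier2 a small nuclear protein. Dusp1 encodes a phosphatase that switches MAP kinases off, and thereby works as feedback on the same signals. Klf2 and Klf4 encode Krüppel-like factors that are induced in endothelium by blood flow, and KLF4 is also made by podocytes. Immediate early genes can also respond to tissue handling, warming and medium changes.

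All 10 probes read well above background on all 12 arrays. Between arrays of one group the correlation over all genes was 0.983 to 0.99. The dimmest readings belonged to Junb at 52.3 signal units and Atf3 at 53.3, whereas the lowest signal called well above background on any array lay between 9.77 and 15.9. Glomerular arrays shared 1 slide, day 4 cultures another and day 7 cultures yet another. Treatments were thus compared within a slide, but slide cannot be told apart from culture day or from culture against glomeruli. On the glomerular slide controls lay at positions 1 and 2 and treated mice at 3 and 4, so position and treatment cannot be told apart there. On each culture slide samples numbered 1 lay at positions 1 (mock) and 2 (tamoxifen), and those numbered 2 at positions 3 and 4. Foxc2 was lower with tamoxifen in glomeruli (log2 difference -2.82, adjusted p = 0.037 by limma) and in cultures on day 4 (-7.87, adjusted p = 0.0019) and day 7 (-8.98, adjusted p = 0.0007). Foxc1 differed by -1.86, -7.41 and -9.20 and passed in none of these comparisons, but did when the culture days were averaged (-8.31, adjusted p = 0.01). Where a treated culture's Foxc signal was not above background the size of that difference is not settled, and the place of the probe relative to the deleted stretch was not given in the sources used here. Summed over 14 podocyte markers, linear signal relative to the array's 75th percentile was 384 to 489 in control glomeruli and 89.9 to 105 across the 8 cultures, and all 14 were above background in every group. Of 14 endothelial markers, 11 were well above background on both arrays of each culture group. The other 3, Tie1, Tek and Erg, were so on neither array of any culture group. In such bulk samples, fewer cells of a type and less RNA per cell cannot be told apart.

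The promoters of the members that take up most of the account below were read from RefSeq (GRCm38.p6), to show which letters recognised by upstream factors they share. Each is the 250 bases before the annotated start, 5′ to 3′ on the gene's strand: Dusp1 at chr17:26508473-26508722 (minus strand), Klf2 at chr8:72318812-72319061 (plus), Klf4 at chr4:55532476-55532725 (minus), Fos at chr12:85473640-85473889 (plus) and Junb at chr8:84978749-84978998 (minus). Capitals mark TGACG on either strand (read as CGTCA on the other), the core of the cAMP response element bound by CREB and ATF proteins.
Dusp1 promoter: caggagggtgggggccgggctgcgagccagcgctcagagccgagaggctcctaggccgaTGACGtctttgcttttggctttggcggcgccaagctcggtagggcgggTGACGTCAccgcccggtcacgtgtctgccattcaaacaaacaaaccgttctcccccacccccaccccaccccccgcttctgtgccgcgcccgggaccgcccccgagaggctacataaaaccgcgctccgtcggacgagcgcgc
Klf2 promoter: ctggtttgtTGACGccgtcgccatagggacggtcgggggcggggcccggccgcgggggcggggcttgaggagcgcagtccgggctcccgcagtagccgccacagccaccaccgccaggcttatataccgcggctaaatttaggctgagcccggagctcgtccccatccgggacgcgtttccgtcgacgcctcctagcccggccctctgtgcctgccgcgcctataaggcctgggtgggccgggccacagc
Klf4 promoter: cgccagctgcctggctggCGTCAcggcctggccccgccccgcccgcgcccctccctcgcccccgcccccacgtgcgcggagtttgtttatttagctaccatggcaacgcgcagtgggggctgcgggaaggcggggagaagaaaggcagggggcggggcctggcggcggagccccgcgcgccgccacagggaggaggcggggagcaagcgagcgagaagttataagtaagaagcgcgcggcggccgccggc
Fos promoter: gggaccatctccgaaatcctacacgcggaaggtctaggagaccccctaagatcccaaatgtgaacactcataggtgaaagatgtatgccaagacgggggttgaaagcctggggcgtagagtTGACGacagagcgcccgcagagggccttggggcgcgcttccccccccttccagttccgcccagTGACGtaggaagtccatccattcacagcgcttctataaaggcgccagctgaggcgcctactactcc
Junb promoter: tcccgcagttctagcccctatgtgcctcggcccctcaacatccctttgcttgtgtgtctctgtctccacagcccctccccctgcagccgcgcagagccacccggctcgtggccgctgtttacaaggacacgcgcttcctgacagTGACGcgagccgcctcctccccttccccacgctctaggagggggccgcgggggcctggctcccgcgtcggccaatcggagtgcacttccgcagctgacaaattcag
Of the 10 members 8 were matched to the promoter table, and Ier2 and Egr1 were not. TGACG lay in 7 of these 8 windows (all but Jun), against 19.8% of 27025 genes, counting windows of the same length at any listed start. TGACG holds a CG, and G and C made up 58.4% to 74.0% of the letters in the 8 windows. The shares over all genes were not matched for base composition, so the part of composition in this count was not tested. The full palindrome TGACGTCA lay in 1 window, that of Dusp1, against 1.77% of those genes. It contains 2 of the 3 TGACG matches counted there, 1 on each strand. The Dusp1 palindrome began 143 bases before the start, and the 2 matches in Fos began 129 and 66 bases before it. Neither the AP-1 letters TGANTCA (7.82% of those genes) nor the CArG box, the serum response factor's motif (1.62%), lay in any of the 8 windows. That says only that these letters were absent from these 250 bases. A match is a run of letters and not a measured site.

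**Figure D1:**
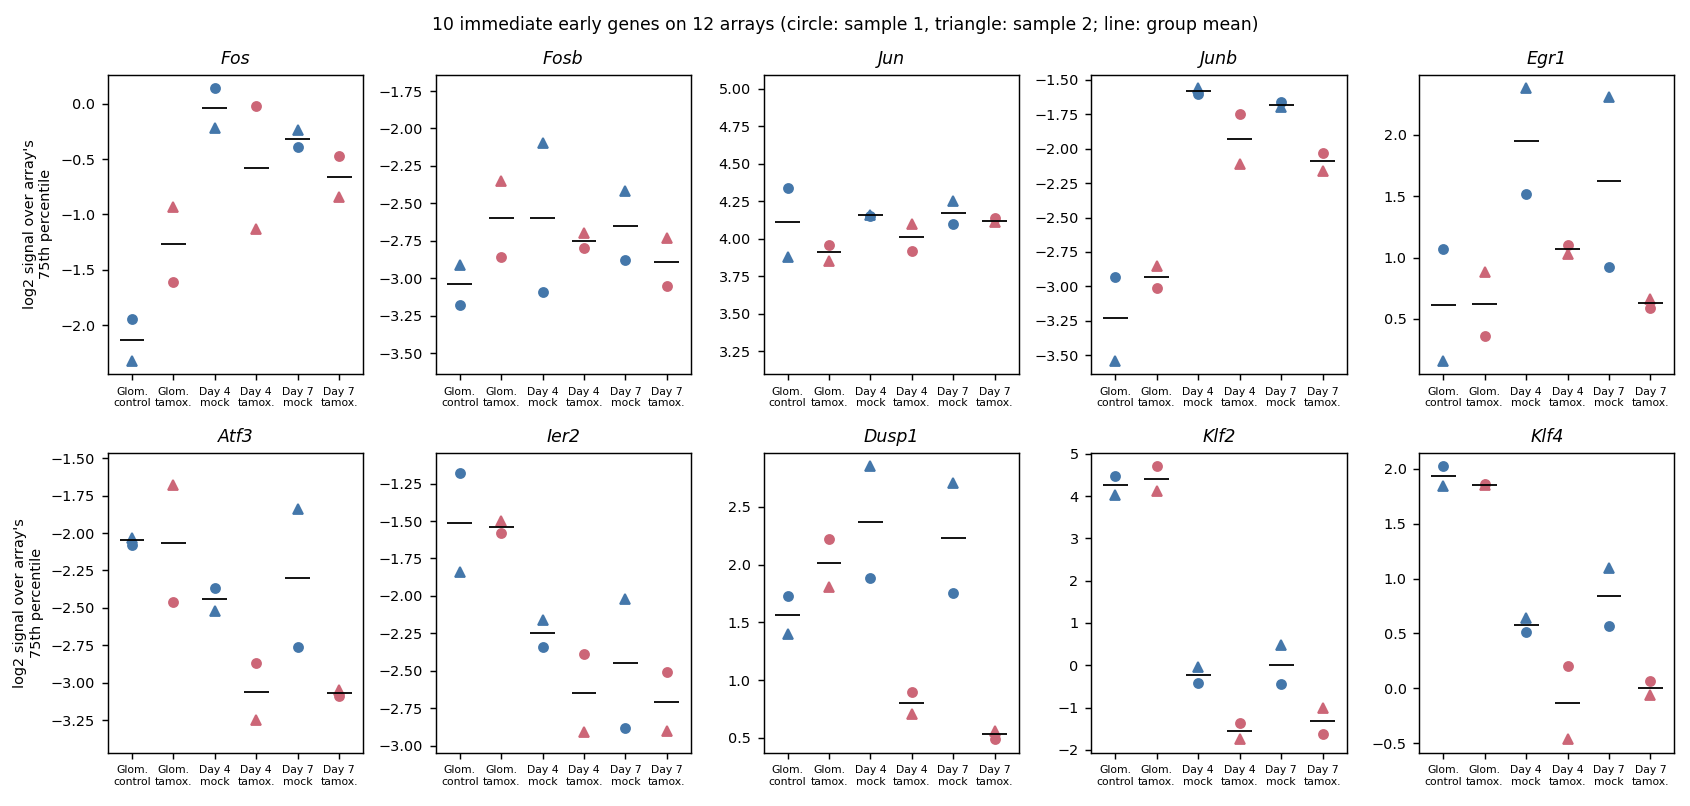
Each panel plots 1 of the 10 immediate early genes: log2 signal relative to the array's 75th percentile (y axis) in the 6 groups (x axis), with circles for sample 1, triangles for sample 2, blue for control or mock, red for tamoxifen and a line at the group mean. Dusp1, Klf2, Klf4, Junb and Atf3 lay lower in all 4 treated cultures than in all 4 mock cultures (5 of 10, 7.63% of all genes). Fos and Junb lay lower in both glomerular groups than in mock cultures.

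The first question was whether these genes differed between tamoxifen-treated and mock-treated podocyte cultures. Dusp1, Klf2 and Klf4 were lower with tamoxifen, by 3.09-fold, 2.51-fold and 1.7-fold when both days were averaged, and these 3 of 10 passed adjusted p under 0.05 in that average; 2.26% of all genes were called lower there. That average was added after the data were seen. Within a single day no member passed: 0 of 10 on day 4, where 0.21% of all genes were called, and 0 of 10 on day 7, where 0.971% were called. At an unadjusted p under 0.05, Dusp1, Klf2 and Klf4 were lower on each day, against 4.56% of genes lower on day 4 and 5.56% on day 7.

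Dusp1, the MAP kinase phosphatase, differed most. On day 4 it stood at 1.88 and 2.85 (log2 signal relative to the 75th percentile) in the mock cultures and at 0.90 and 0.71 in the treated ones. On day 7 the values were 1.75 and 2.71 with mock and 0.49 and 0.56 with tamoxifen. All 4 treated cultures were below all 4 mock cultures, and the mock cultures numbered 2 stood highest on both days. The difference was -1.56 (SE 0.38) on day 4, with adjusted p = 0.17, and -1.70 (SE 0.38) on day 7, with adjusted p = 0.10 (0.048 with the replicate block, 0.048 to 0.48 over all alternatives). Averaged over the days it was -1.63 (SE 0.27, 95% interval -2.25 to -1.01, adjusted p = 0.017). That call held in 19 of 24 other settings and was lost, with adjusted p up to 0.064, on leaving out the day 4 mock culture numbered 2 or any 1 of the 4 treated cultures. Whether the day 4 and day 7 cultures of a treatment were independent is not given, and the average treats them as if they were.

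Klf2, a flow-responsive transcription factor of endothelium, was at -0.41 and -0.05 in day 4 mock cultures and at -1.36 and -1.74 in treated ones. Day 7 mock cultures gave -0.45 and 0.47, and treated ones -1.62 and -1.02. Again all 4 treated cultures lay below all 4 mock cultures. The differences were -1.32 (SE 0.37, adjusted p = 0.23) on day 4 and -1.33 (SE 0.37, adjusted p = 0.17) on day 7. Over both days the difference was -1.33 (SE 0.26, adjusted p = 0.028), a call kept in 15 of 24 other settings. It was lost with normexp background correction (-0.94, adjusted p = 0.062), with only the groups compared, and without the day 4 mock culture 1 or 2, either day 4 treated culture, the day 7 mock culture 2 or the day 7 treated culture 1. The adjusted p ranged from 0.015 to 0.20 over the alternatives. Endothelial markers summed to 8.28 to 13.5 in mock cultures and 8.39 to 10.9 in treated ones. Tie1, Tek and Erg were not above background, while the other 11 of 14 were, on both arrays of each culture group. On either day and in the average 0 of 14 were called.

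Klf4, a Krüppel-like factor found in podocytes as well as endothelium, read 0.51 and 0.64 in day 4 mock cultures against 0.20 and -0.46 with tamoxifen. On day 7 it read 0.57 and 1.1 with mock and 0.07 and -0.06 with tamoxifen. No treated culture reached a mock culture. The differences were -0.71 (SE 0.24, adjusted p = 0.32) and -0.83 (SE 0.24, adjusted p = 0.18), and the average was -0.77 (SE 0.17, adjusted p = 0.042). This call was close to the threshold: it held in 9 of 24 other settings, with adjusted p from 0.028 to 0.29. It was lost with median scaling (adjusted p = 0.060), when dim probes were kept, with only the groups compared and with the replicate block. It was also lost on leaving out any 1 of the 4 glomerular arrays, either day 4 mock culture, the day 4 treated culture 2, the day 7 mock culture 2 or either day 7 treated culture.

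Egr1, Atf3 and Junb were lower in both treated cultures than in both mock cultures on each day, but passed the test on neither day nor in the average. The zinc finger gene Egr1 read 1.52 and 2.38 with mock against 1.1 and 1.03 with tamoxifen on day 4. Its day 7 values were 0.92 and 2.31 against 0.59 and 0.66. The treated cultures lay close together while the mock cultures were spread widely, and the average difference was -0.93 (SE 0.35, adjusted p = 0.18). Atf3, the stress-induced ATF gene, read -2.37 and -2.52 against -2.87 and -3.25 on day 4, and -2.76 and -1.84 against -3.09 and -3.05 on day 7. The average difference of Atf3 was -0.69 (SE 0.24, adjusted p = 0.15). For the AP-1 gene Junb the mock values were -1.60 and -1.56 on day 4 and -1.66 and -1.70 on day 7. Its treated values were -1.75 and -2.11, then -2.03 and -2.16, an average difference of -0.38 (SE 0.14, adjusted p = 0.18). Junb had the tightest mock values of the 3, and all 4 of its treated cultures lay below all 4 mock cultures, as did those of Atf3.

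The remaining members had treated and mock cultures that overlapped on at least 1 day. Fos, the partner of the Jun proteins in AP-1, read 0.14 and -0.22 with mock and -0.02 and -1.13 with tamoxifen on day 4, then -0.39 and -0.24 against -0.47 and -0.84 on day 7. Each treated culture read below the mock culture of its own number, and only the day 4 treated culture 2 stood clearly apart for Fos, which has 10 spots per array whose log2 readings had an SD of 0.026 to 0.091 within an array. The average difference of Fos was -0.44 (SE 0.27, adjusted p = 0.41). Fosb, a relative of Fos, read -3.09 and -2.10 against -2.80 and -2.70 on day 4, and -2.88 and -2.42 against -3.05 and -2.73 on day 7. Here the day 4 treated values fell between the 2 mock values, and the average difference was -0.20 (SE 0.24, adjusted p = 0.70). Jun, the core AP-1 partner, read 4.15 and 4.16 against 3.92 and 4.10, then 4.10 and 4.25 against 4.14 and 4.11. Its average difference was -0.10 (SE 0.11, 95% interval -0.36 to 0.16, adjusted p = 0.68), the narrowest interval among the members. The small nuclear protein gene Ier2 read -2.34 and -2.16 against -2.39 and -2.91 on day 4, and -2.88 and -2.02 against -2.51 and -2.90 on day 7, an average difference of -0.33 (SE 0.24, adjusted p = 0.49).

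Counted together, the group mean was lower with tamoxifen on both days for 10 of 10 members, against 38.2% of all genes, but normexp background correction turned Fosb (0.57), Junb (0.33), Atf3 (0.51) and Ier2 (0.26) higher on day 4, and median scaling turned Jun (0.01) higher on day 7. Normexp also moved the median of all genes on day 4 from 0.02 to 0.19. Leaving out 1 culture also turned means: Fos on day 4 (0.02) without the day 4 treated culture 2, Fosb on day 4 (0.34) without the day 4 mock culture 2, and Jun (0.03) and Ier2 (0.17) on day 7 without the day 7 mock culture 2. Egr1, Dusp1, Klf2 and Klf4 had lower means on both days under each of the 24 alternatives. Both treated cultures lay below both mock cultures for 8 of 10 members on day 4 (21.4% of all genes) and for 7 of 10 on day 7 (18.8%). They did so on both days for 6 of 10: Junb, Egr1, Atf3, Dusp1, Klf2 and Klf4 (11.3% of all genes). All 4 treated cultures lay below all 4 mock cultures for 5 of 10 (7.63%). The members' median difference was -0.58 on day 4 and -0.59 on day 7, where the median of all genes was 0.02 and 0.00. The members shared samples and arrays, so these counts are not 10 independent observations. The members were also chosen with earlier results of these data known, so setting them beside the shares of all genes is no test. With 2 samples against 2, an exact permutation test of a single gene cannot give a two-sided p below 0.333.

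**Figure D2:**
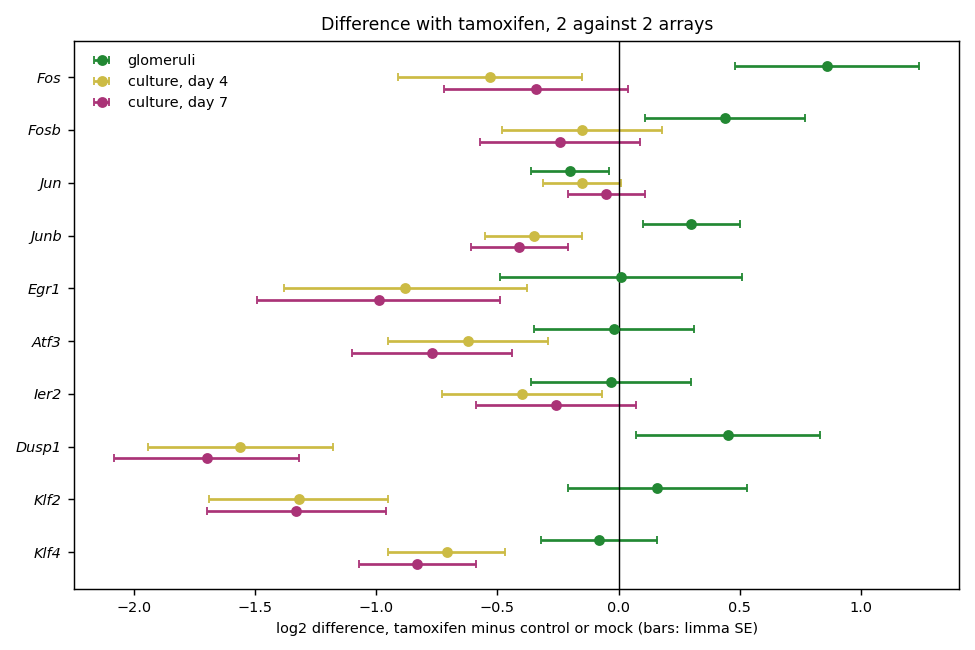
Points are log2 differences, tamoxifen minus control or mock (x axis), for the 10 genes (y axis) in glomeruli (green), day 4 cultures (yellow) and day 7 cultures (purple), with bars of 1 limma standard error and 2 against 2 arrays in each. Dusp1 lay at -1.56 and -1.70 in cultures and at 0.45 in glomeruli.

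The 2 mock cultures of a day were far apart for several members. Dusp1 read 0.96 higher in the mock culture numbered 2 than in that numbered 1 on both days, a wider gap than that of 93.4% of genes on day 4 and 91.5% on day 7. For Egr1 the gap was 0.86 on day 4 and 1.38 on day 7, wider than in 91.9% and 95.8% of genes. On day 7 it was also 0.92 for Atf3, 0.86 for Ier2 and 0.92 for Klf2, where the median gap of all genes was 0.22. In treated cultures the gap of Dusp1 was -0.19 on day 4 and 0.07 on day 7, and that of Egr1 -0.07 and 0.07, but other members lay far apart there. On day 4 the treated culture numbered 2 read lower for Fos (-1.11, a wider gap than in 95.9% of genes), Klf4 (-0.67, 90.2%) and Ier2 (-0.52, 86.5%), and on day 7 it read higher for Klf2 (0.60, 86.3%). Junb and Jun had gaps of 0.15 or less in mock cultures of either day. On the same arrays, the summed level of Foxc1 and Foxc2 was 11.9 and 21.2 in mock cultures 1 and 2 on day 4, and 8.74 and 22.6 on day 7. Summed immune markers ran the other way, with 19.1 and 12.02 on day 4 and 18.4 and 11.2 on day 7. So did summed endothelial (10.96 and 9.22, then 13.5 and 8.28) and fibroblast markers (143 and 129, then 150 and 72.3). Tubule, mesangial and mural, and podocyte sums were also lower in mock culture 2 on both days, podocyte sums only slightly on day 7 (93.0 and 92.4). Parietal and red blood cell sums were higher in it on day 4 and lower on day 7. The labels do not say whether cultures numbered 2 came from one preparation, and the part of these values in the gaps was not tested. Culture number and position on the slide cannot be told apart. Leaving out both mock cultures numbered 2 gave an average tamoxifen difference of -1.15 for Dusp1 (adjusted p = 0.049), -1.01 for Klf2 (adjusted p = 0.20), -0.60 for Klf4 (adjusted p = 0.29) and -0.37 for Egr1 (adjusted p = 0.68). This setting was chosen after the data were seen.

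**Figure D3:**
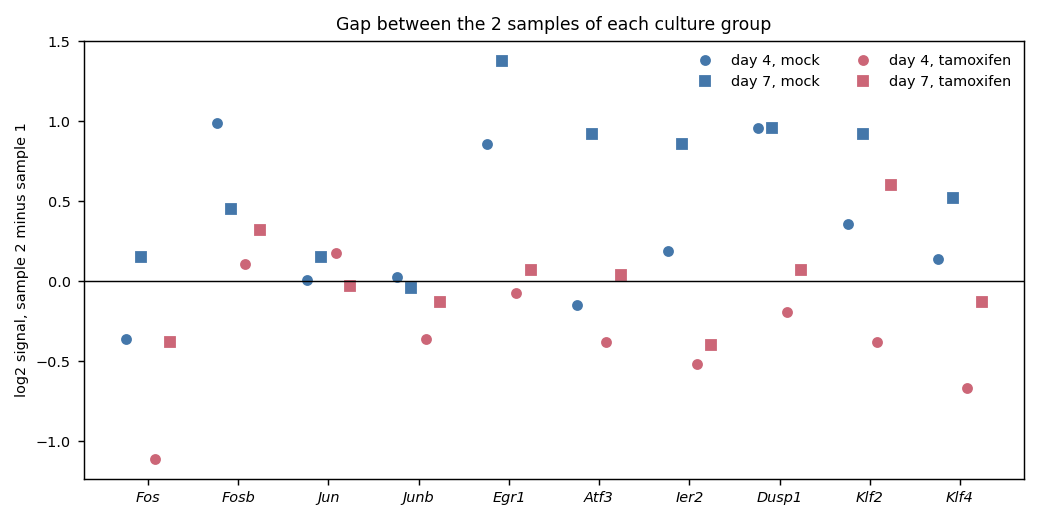
The y axis is the log2 signal of sample 2 minus that of sample 1 within each culture group, for each of the 10 genes (x axis), with circles for day 4, squares for day 7, blue for mock and red for tamoxifen. Egr1 and Dusp1 lay between 0.86 and 1.38 in mock cultures and between -0.19 and 0.07 in treated ones, and the treated gap of Fos on day 4 was -1.11.

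Marker lists were summed in the same cultures, with no test of the sums. Mesangial and mural markers summed to 464 to 556 in mock and 606 to 677 in treated cultures, and parietal epithelial markers to 4.08 to 5.79 and 6.50 to 7.48, so mock and treated cultures did not overlap in either. A sum follows its brightest genes. Averaged over both days, 6 of 12 mesangial and mural markers had higher means and 6 had lower means (median -0.03). Of 7 parietal markers 5 had higher means and 2 lower. Mock and treated cultures did overlap in 4 other lists. Podocyte markers summed to 90.8 to 98.0 with mock and 89.9 to 105 with tamoxifen, fibroblast markers to 72.3 to 150 and 135 to 192, immune markers to 11.2 to 19.1 and 8.31 to 13.5, and tubule markers to 1.44 to 2.79 and 1.86 to 3.73. In the average of both days, where the members' calls lay, 2.26% of all genes were called lower and 2.84% higher. Of 14 podocyte markers 3 were called lower (Col4a3, Npnt and Ptpro). Podocyte marker means were lower in 8 of 14 and higher in 6 (median -0.39). Of 12 mesangial and mural markers Rgs5 was lower and Myh11 higher, of 7 parietal markers Cldn1 was lower, of 8 fibroblast markers Mfap5 was higher, and 0 of 12 immune and 0 of 15 tubule markers were called. Within a day, the calls in these lists were Rgs5 and Cldn1 (lower) and Mfap5 (higher), all on day 7. The part of these lists in the members' differences was not tested. No member differed between day 7 and day 4 in its response: 0 of 10 were called in that interaction (0.0% of all genes) and 0 at an unadjusted p under 0.05, against 137 genes in all (0.899%). The widest 95% interval of that difference was Egr1's, -1.73 to 1.51, so day effects of that size were not resolved.

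The in vivo comparison asked the same question in isolated glomeruli. No member passed there (0 of 10, 2.46% of all genes called), and none had an unadjusted p under 0.05 by limma (18.3% of all genes). Fos came closest. It read -1.94 and -2.32 in control glomeruli and -1.61 and -0.93 after tamoxifen, so both treated mice stood above both controls, a difference of 0.86 (SE 0.38, 95% interval -0.01 to 1.73, adjusted p = 0.28). Fosb (-3.18 and -2.91, then -2.86 and -2.35) and Dusp1 (1.73 and 1.40, then 2.22 and 1.81) also had both treated mice above both controls. These 3 of 10 compare with 19.8% of all genes, and 0 of 10 lay wholly lower (28.1%). The difference of Dusp1 was 0.45 (SE 0.38, adjusted p = 0.59).

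In the other members control and treated mice overlapped. Junb read -2.93 and -3.54 in controls and -3.01 and -2.85 after tamoxifen, and Jun 4.34 and 3.88 then 3.96 and 3.85. Egr1 read 1.07 and 0.16 against 0.36 and 0.88, a mean difference of 0.01 whose 95% interval ran from -1.14 to 1.15. Atf3 (-2.08 and -2.03 against -2.46 and -1.68) and Ier2 (-1.18 and -1.84 against -1.58 and -1.50) differed by -0.02 and -0.03. The Krüppel-like genes stood high in all 4 mice: Klf2 at 4.47 and 4.03 in controls and 4.70 and 4.12 after tamoxifen, Klf4 at 2.02 and 1.84, then 1.86 and 1.85. Klf4 differed by -0.08 with a 95% interval of -0.63 to 0.47, narrower than those of Klf2 (-0.68 to 1.01) and Dusp1 (-0.43 to 1.33). The members' median difference was 0.09, against -0.05 for all genes.

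Marker lists were summed in these mice as well, with no test of the sums. Summed tubule markers were 184 and 221 in controls and 488 and 366 after tamoxifen. Red blood cell markers were 87.6 and 39.3 in controls and 0.91 and 7.43 after tamoxifen, and endothelial markers 375 and 316, then 272 and 262. Immune markers summed to 11.9 and 11.2 in controls and 5.57 and 7.58 after tamoxifen, and podocyte markers to 384 and 489, then 259 and 350. Of all genes 0.84% were called lower and 1.62% higher. Called lower were 4 of 6 red blood cell markers, 1 of 12 immune markers (Ms4a1), 1 of 14 podocyte markers (Synpo) and 0 of 14 endothelial markers. Called higher were 2 of 15 tubule markers (Slc22a6 and Slc12a1) and 1 of 12 mesangial and mural markers (Acta2). The mean was lower in 13 of 14 endothelial, 13 of 14 podocyte and 11 of 12 immune markers (57.3% of all genes). It was higher in 14 of 15 tubule and 12 of 12 mesangial and mural markers (42.7%). The part of these markers in the members' values was not tested.

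Set against the cultures, the glomerular response of the members differed by -0.11 (Jun) to 2.08 (Dusp1), with 0 called (1.08% of all genes) and 5 of 10 higher at an unadjusted p under 0.05 (7.77% of all genes). Those 5 were Fos, Junb, Dusp1, Klf2 and Klf4. The gap between responses was 2.08 for Dusp1 (SE 0.47, 95% interval 1.00 to 3.16, adjusted p = 0.081), 1.49 for Klf2 (SE 0.45, adjusted p = 0.15) and 1.30 for Fos (SE 0.46, adjusted p = 0.21). The replicate block brought Dusp1 to adjusted p = 0.046 in this contrast and to 0.048 in the day 7 comparison. The adjusted p of Dusp1 in this contrast ranged from 0.046 to 0.24 over its alternatives. Without that block no member's response was shown to differ between glomeruli and cultures.

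Time in culture without tamoxifen moved no member past the test: 0 of 10 between day 7 and day 4 mock cultures, where 0.0328% of all genes were called, and 0 at an unadjusted p under 0.05 (6.49%). The differences ran from -0.34 for Egr1 to 0.26 for Klf4. Both day 7 values of Fos and Junb lay below both day 4 values (2 of 10, 11.5% of all genes). Slide and day cannot be told apart here.

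Mock cultures and control glomeruli differed in these genes in both directions. Fos and Junb, of AP-1, and Egr1 were higher in mock cultures than in control glomeruli, and Klf2, Klf4 and Ier2 were lower. These 6 of 10 compare with 63.6% of all genes called (37.6% higher, 26.0% lower), so the members' share was near the background. Klf2 was 20.5-fold lower in mock cultures, a log2 difference of -4.36 (SE 0.32, adjusted p = 1.4e-05). Klf4 was 2.34-fold lower (-1.22, SE 0.21, adjusted p = 0.0012). All 4 mock cultures were below both control glomeruli for these genes and for Ier2 (3 of 10, 29.3% of all genes), and above both for Fos, Junb and Dusp1 (3 of 10, 42.0%). Fos was 3.87-fold higher in culture (1.95, SE 0.33, adjusted p = 0.0011) and Junb 3.03-fold higher (1.60, SE 0.18, adjusted p = 0.00012). Fos, Junb, Klf2 and Klf4 kept their calls in 23 of 23 alternatives.

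Calls on the other 2 rested on more. Egr1 was 2.25-fold higher (1.17, SE 0.43, adjusted p = 0.043) with overlapping arrays, and its call held in 10 of 23 alternatives, with adjusted p from 0.0085 to 0.28. It was lost with quantile scaling, no filter on dim probes or only the groups compared. It was lost as well without control glomeruli 2, without any 1 of the 6 tamoxifen arrays, and without either mock culture numbered 2. Ier2 was 1.79-fold lower (-0.84, SE 0.29, adjusted p = 0.034), a call held in 14 of 23, with adjusted p from 0.010 to 0.25. That of Ier2 was lost with normexp, median or quantile scaling, only the groups compared, the replicate block, and without control glomeruli 1, either day 4 mock culture or the day 7 mock culture 1. Fosb (0.42), Jun (0.05), Atf3 (-0.32) and Dusp1 (0.73, adjusted p = 0.084) did not pass. Jun changed sign with quantile scaling (-0.20). With median scaling, the median of all genes in this contrast moved from 0.17 to 0.39 and the split of calls from 5732 higher and 3959 lower to 7001 and 3081.

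All 14 endothelial markers were lower in mock cultures, with a median difference of -5.57, and so were all 15 tubule markers and all 6 red blood cell markers. On neither array of a mock group above background were 3 endothelial markers on each day, 7 tubule markers on day 4 and 6 on day 7, and 4 and 3 red blood cell markers. For those the size of the difference is not settled. Podocyte markers were called lower in 11 of 14 and higher in 1 (median -2.02). Mesangial and mural markers were called lower in 8 of 12 and higher in 3, and fibroblast markers lower in 1 of 8 and higher in 6. Parietal markers were called lower in 2 of 7 and higher in 4, and immune markers lower in 3 of 12 and higher in 2. Heat shock genes were called higher in 8 of 11 (37.6% of all genes), among them Hsp90aa1 (1.31, adjusted p = 5.2e-05) and Bag3 (0.89, adjusted p = 0.00014), and lower in 1 (26.0%). In the tamoxifen comparisons of glomeruli, day 4 and day 7, 0 of 11 heat shock genes were called. Tissue, isolation, culture and slide differ together in this contrast, and their parts were not tested.

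**Figure D4:**
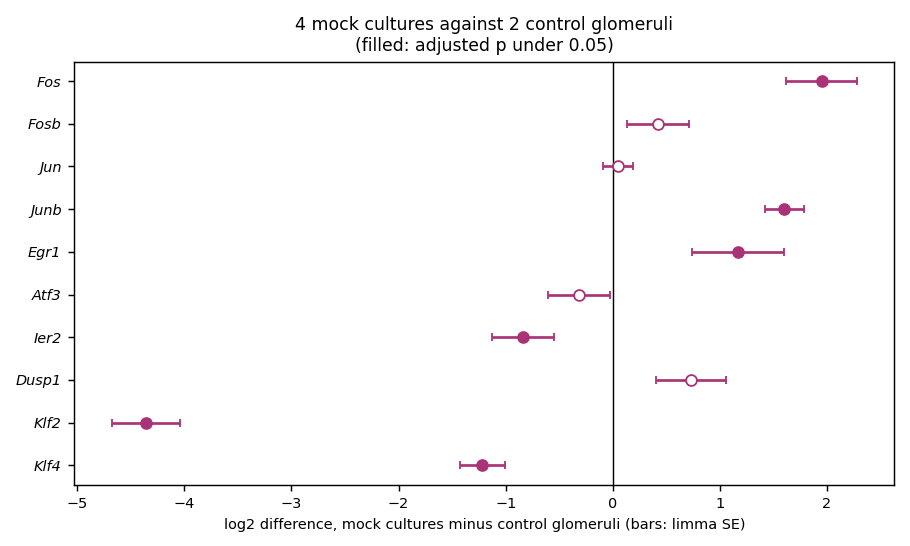
Points are log2 differences, 4 mock cultures minus 2 control glomeruli (x axis), for the 10 genes (y axis), with bars of 1 limma standard error; filled points passed adjusted p under 0.05. Klf2 lay lowest at -4.36 and Fos highest at 1.95.

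Ordered by group mean, the members fell into a few patterns. For Klf2 the order was treated glomeruli (4.41), control glomeruli (4.25), day 7 mock (0.01), day 4 mock (-0.23), day 7 tamoxifen (-1.32) and day 4 tamoxifen (-1.55), with overlap between the glomerular pair, between the mock pair and between the treated pair. Klf4 had the same steps with its control glomeruli (1.93) first and the treated cultures (0.00 and -0.13) last. Dusp1 had its mock cultures (2.37 and 2.23) first, then treated glomeruli (2.01), control glomeruli (1.56) and the treated cultures (0.80 and 0.53). Neighbours in that order overlapped only among the mock cultures and treated glomeruli. Fos ran from day 4 mock (-0.04) through the other cultures to treated (-1.27) and control glomeruli (-2.13), and Junb likewise from -1.58 to -2.93 and -3.23. For Egr1, day 7 treated cultures (0.63) and both glomerular groups (0.62 and 0.61) were level and had the lowest means. Atf3 and Ier2 were highest in glomeruli (means of -2.05 and -1.51 in controls) and lowest in treated cultures (-3.07 and -2.71 on day 7). Every pair of neighbours overlapped for Fosb, whose means spanned -3.04 to -2.60, and all but 1 pair did for Jun, at 3.91 to 4.17.

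The wider set of early genes was divided in direction. Of 78 other genes listed, 74 were tested (Egr3, Egr4, Nr4a3 and Cxcl2 were not), and 0 of 74 were called in glomeruli, on day 4 or on day 7. With tamoxifen 36 of 74 had a lower mean on day 4 and 34 on day 7, where 46.7% and 49.4% of all genes did, so this split was near the background. The medians of the 74 were 0.02 and 0.01. In the average of both days 5 of 74 were called, 2 higher and 3 lower, where 5.1% of all genes were called (2.84% higher), so the share of these genes was near the background. The MAP kinase phosphatases went opposite ways: Dusp2 was higher by 1.07 (SE 0.14, adjusted p = 0.0074) and Dusp6 differed by -0.82 (SE 0.12, adjusted p = 0.0098). Ereg, an EGF receptor ligand, was higher by 0.61 (adjusted p = 0.014), and the kinase gene Sgk1 (-0.90) and the Krüppel-like factor gene Klf6 (-1.08) were lower, each with adjusted p = 0.03. Without both mock cultures numbered 2, none of these 5 passed (adjusted p from 0.079 to 0.19). Among other feedback genes, Errfi1, an inhibitor of EGF receptor signalling, differed by -1.15 on day 4 and -1.05 on day 7 and by 1.03 in glomeruli, and passed in none of the 3 (adjusted p = 0.41, 0.42 and 0.28).

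By family, the 11 other AP-1 and ATF genes had a median difference of -0.08 on day 4 and 0.02 on day 7, and the 5 tested EGR and NR4A genes -0.38 and -0.39. Nr4a1, an orphan nuclear receptor gene, differed by -0.57 and -0.66, and passed on neither day. The 20 early secreted and cytoskeletal genes had medians of 0.57 and 0.44, with 15 of 20 higher on each day (53.3% and 50.6% of all genes). Among those higher was the prostaglandin synthase gene Ptgs2 (1.22 and 1.44, adjusted p = 0.41 and 0.27). Mock cultures differed from control glomeruli in 51 of the 74, with 36 higher and 15 lower, where 63.6% of all genes were called (37.6% higher, 26.0% lower). Higher ones included the AP-1 genes Fosl1 (2.66) and Fosl2 (2.38), Myc (3.41), Klf5 (4.42) and Egr2 (2.45). Lower ones included Nr4a1 (-4.39) and the feedback inhibitor gene Spry4 (-3.09). Fosl1 was above background on neither control glomerular array, and Spry4 on neither array of either mock culture group. The sizes of these differences of Fosl1 and Spry4 are thus not settled. Of 20 genes for the upstream kinases and transcription factors, 0 were called on either culture day. In glomeruli 1 was: Map2k1, which encodes the kinase MEK1, differed by -0.75 (SE 0.14, adjusted p = 0.038), a call held in 8 of 24 other settings with adjusted p up to 0.27.

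**Figure D5:**
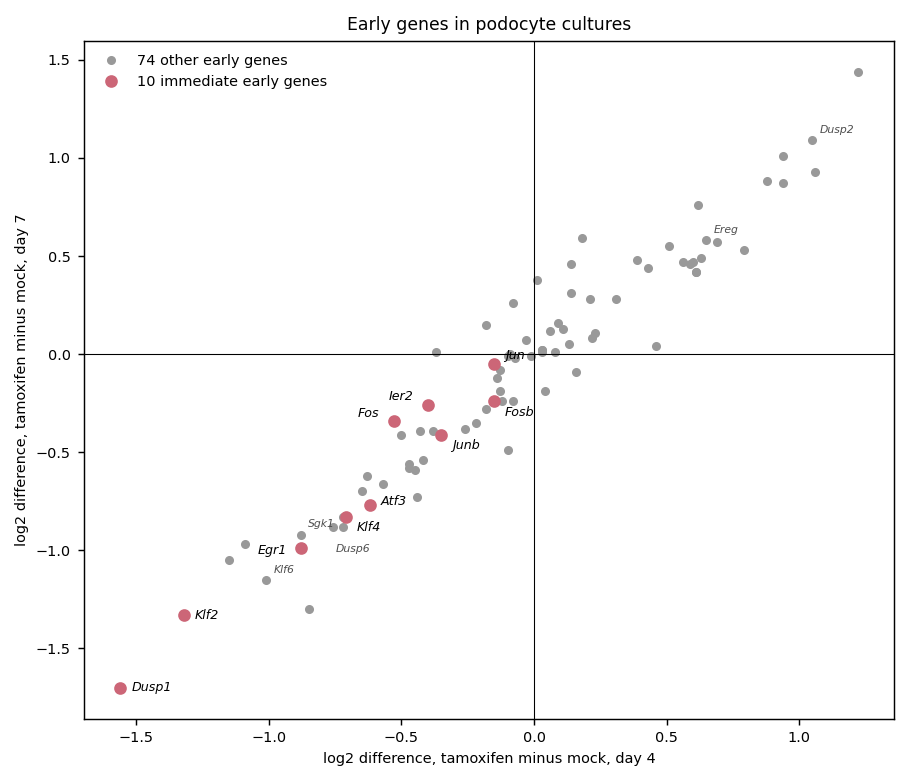
The x axis is the log2 difference, tamoxifen minus mock, on day 4 and the y axis that on day 7, for the 10 immediate early genes (red) and 74 other early genes (grey). All 10 red points lie below 0 on both axes, although normexp background correction puts Fosb, Junb, Atf3 and Ier2 above 0 on day 4 and median scaling Jun on day 7, and the grey points spread from -1.15 to 1.22 on day 4 and from -1.30 to 1.44 on day 7.

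Among themselves the members varied together to different degrees. Over the 12 arrays, after the mean of glomeruli and of cultures was taken off each gene, the 45 pairs had a median Pearson r of 0.55, with 43 above 0 and a range of -0.24 to 0.92. Pairs of other genes were not correlated for reference. Egr1 and Dusp1 were closest to the members' mean (0.92 each), and Jun (0.39) and Fosb (0.48) were farthest. Each member is itself part of that mean, which raises its r. The 5 other genes most like that mean were Sfrp2 (0.949), Tle6 (0.943), Mgp (0.93), Sgf29 (0.928) and Sgk1 (0.927). Sfrp2 encodes a secreted Wnt modulator and Mgp matrix Gla protein, an inhibitor of calcification. Averaged over both culture days, Sfrp2 differed with tamoxifen by -2.45 (adjusted p = 0.021), Tle6 by -1.43 (adjusted p = 0.015) and Mgp by -2.92 (adjusted p = 0.008), whereas Sgf29 did not pass (-0.33, adjusted p = 0.12). These correlations describe 12 arrays that share treatment and slide, and include the treated and mock groups themselves. The 5 other genes were thus picked on a profile that holds the tamoxifen difference, so their tamoxifen p-values are no separate test.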

How the data were processed

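Total RNA of 4 glomerular samples and 8 podocyte cultures was hybridised to Agilent one-colour arrays. The scanner files deposited give each spot's intensity from Feature Extraction (Agilent, version 11.5.1.1) per the file headers. A value table from the authors is on a log2 scale and tracked the scanner values (r of 1 on every array, same direction, column medians -4.14 to -3.82).

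The 75th percentile of log2 signal was subtracted from each array (506.8 to 760 signal units). Control and outlier spots were left out (83 to 134 outlier spots an array, 0 saturated), spots of a probe were averaged, and probes well above background on at least 2 arrays were kept (26432). Genes were named through RefSeq accessions: 26581 of 39429 probes had 1 symbol, 0 several and 12848 none. The brightest probe stood for a gene. Over all 12 arrays and 15243 genes, limma 3.58.1 (R 4.3.3) gave differences, with Benjamini-Hochberg adjustment; a gene is called at adjusted p under 0.05. Log2 differences carry the standard error of that fit. The small number of arrays limits the precision. The code was tested on simulated data.

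The members and gene lists were chosen with earlier results of these data known. All 10 members were named in every sample; other list genes were the called genes of lowest adjusted p, or those of widest difference. Alternatives were normexp background (planned on mean signals, run on median signals, the column the files hold), median or quantile scaling, other filters, probe averaging, trend and robust moderation, only the groups compared, the replicate block, the slide, the value table and leaving out each array. The average of both culture days and the setting without both mock cultures numbered 2 were added after the data were seen. Promoter letters were searched on both strands in RefSeq windows (GRCm38.p6).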

Additional observations from a re-analysis of the deposited data

How the results depend on the processing

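No called difference of a member or list gene turned sign. In glomeruli 375 genes were called, against 212 with the filter at 6 arrays, 5 with normexp background, 0 with only the groups compared and 6 without both mock cultures numbered 2. On day 4 there were 32, against 82 with trend and robust moderation, 5071 with normexp, 0 with only the groups compared, 52 with quantile scaling and 19 without both mock cultures numbered 2; normexp called 2 members there (Dusp1 at -1.62, Klf4 at -0.64). On day 7 there were 148, against 44 with normexp, 1 with only the groups compared and 23 without those 2 cultures. The day interaction had 0 and then 1 without them. The contrast of glomerular and culture responses had 164, against 102 with no filter, 0 with normexp and 17 without them. For mock culture time there were 5, against 0 with trend and robust moderation, 2 with the filter at 6 arrays, 10 with no filter, 0 with normexp, 0 with only the groups compared, 3 with quantile scaling and 1 without them. The average of both days had 777, and 142 without them; its 3 members became 1 with only the groups compared and 1 without them. The cause was not tested, except that the last 2 settings use fewer samples.

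Median scaling changed the split of higher and lower calls from 247 and 128 to 318 and 72 in glomeruli, from 14 and 18 to 29 and 18 on day 4, from 69 and 79 to 117 and 67 on day 7, and from 433 and 344 to 540 and 276 in the average. Normexp moved the median of all genes in the average from 0.01 to 0.13.

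Leaving out 1 array at a time gave 79 to 494 genes in glomeruli, 7 to 78 on day 4, 9 to 237 on day 7, 0 to 1 in the day interaction, 6 to 367 between glomerular and culture responses, 0 to 7 for culture time, 8251 to 9595 for cultures against glomeruli and 228 to 926 in the average. The members called were 0 in each of the first 6, 4 to 7 for cultures against glomeruli and 0 to 4 in the average.

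The labels do not say that equal numbers pair samples, and with 2 numbers a group the data cannot settle it. As a hint from the data, deviations of equally numbered samples correlated at 0.21 between glomerular groups and 0.395 to 0.551 between culture groups, and at -0.038 to 0.085 across. Culture samples of equal number also lay at the same or neighbouring slide positions, so number and position cannot be told apart there. With the replicate block 944 genes were called in glomeruli, 241 on day 4, 647 on day 7, 716 between responses, 0 for culture time and 1992 in the average, with 1 member (Dusp1) called on day 7 and 1 (Dusp1) between responses. Slide as a block left comparisons within a slide as they were and could not be fitted for the others.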
